A study of Mus musculus with 24 samples.

Results

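Brain endothelial genes, which mark the cells that line the blood vessels of the brain, were followed in mouse hippocampal RNA. The set held 10 genes chosen by symbol: the adhesion and junction genes Pecam1, Cdh5 and Esam, the surface antigen gene Ly6c1, the receptor genes Tek, Flt1 and Kdr, and the blood-brain barrier transporter genes Slc2a1, Mfsd2a and Abcb1a. All 10 were among the 49568 gene symbols of the count files, and all 10 were among the 18482 genes that passed the filter on low counts. The question put to the data was whether these genes differed with housing, since enrichment is reported to promote the growth of new vessels, and whether any difference depended on MSK1.

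The endothelium of the brain is sealed by tight and adherens junctions and carries transporters that feed the brain and pump foreign molecules out, which together form the blood-brain barrier. New vessels sprout when vascular endothelial growth factor acts on the receptor Kdr (VEGFR2), while Flt1 (VEGFR1) binds the same ligand and acts largely as a decoy. The angiopoietins act on Tek (Tie2), which helps to keep vessels stable, and Wnt and norrin signals through Fzd4 maintain the barrier.

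Hippocampal polyA RNA came from male mice on a C57-Bl/6J background, aged 12 weeks per the labels, in 4 groups. WT mice in standard housing (WT SH) and MSK1 kinase-dead mice in standard housing (KD SH) gave 6 libraries each, and WT and KD mice raised in an enriched environment (WT EE and KD EE) gave 5 each, after the failed libraries 33B (WT EE) and 34B (KD EE) were left out. KD mice carry a point mutation in the endogenous MSK1 gene, Rps6ka5, that inactivates the kinase in every cell, and they were bred as a homozygous line beside a WT line rather than as littermates. Enriched cages were larger, held a running wheel and toys and more animals, and were used from before birth. Because the lesion is a point mutation, the level of Rps6ka5 does not check the genotype labels: it ranged from 22.3 to 28.3 CPM, that is, counts scaled to a library of 1000000, in WT SH, 19.25 to 24.4 in WT EE, 22.025 to 28.2 in KD SH and 20.7 to 29.0 in KD EE. The labels do not say that each library was a separate mouse, so a p-value here measures the spread between libraries only.

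The 22 libraries held 8911999 to 56752074 counts on genes, and the summed counts of the 10 genes in a library ran from 2247 (library 9) to 16981 (35A). No pair of files among the 24 held identical counts. Markers of choroid plexus, a secretory tissue of the ventricles that lies against the hippocampus and has its own capillaries, differed widely between libraries. Their 14 genes summed to 68.1 to 1941 CPM in WT SH, 65.8 to 5499 in WT EE, 47.7 to 3045 in KD SH and 223 to 5908 in KD EE, and none was at 0 throughout. Library 12 (WT SH) was rich in thalamic markers, with a sum of 383 CPM over 6 genes against a median of 107 in its group, and library 14 (WT SH) in striatal ones, with 165 against 75.3. The lettered libraries (31B to 36A) are all enriched, so the letter and the housing cannot be told apart among them.

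The 250 bases before the transcription start are shown for some of the genes, from RefSeq on GRCm38.p6. Slc2a1 (chr4:119108495-119108744, plus strand) and Mfsd2a (chr4:122961189-122961438, minus strand) stood apart in the same libraries, Ly6c1 (chr15:75048838-75049087, minus strand, the more upstream of its 2 listed starts) gave the lowest p-values, and Kdr (chr5:75978456-75978705, minus strand) and Tek (chr4:94739039-94739288, plus strand) are the 2 shown that hold a match to an ETS motif. ETS factors such as Erg and Fli1 bind a GGAA core in many endothelial promoters. Capitals mark CCGGAA or CAGGAA on either strand.
Slc2a1: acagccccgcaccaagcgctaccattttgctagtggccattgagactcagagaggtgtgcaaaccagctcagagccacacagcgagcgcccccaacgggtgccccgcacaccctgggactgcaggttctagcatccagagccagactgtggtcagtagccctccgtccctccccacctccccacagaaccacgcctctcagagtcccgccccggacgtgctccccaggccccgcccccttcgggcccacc
Mfsd2a: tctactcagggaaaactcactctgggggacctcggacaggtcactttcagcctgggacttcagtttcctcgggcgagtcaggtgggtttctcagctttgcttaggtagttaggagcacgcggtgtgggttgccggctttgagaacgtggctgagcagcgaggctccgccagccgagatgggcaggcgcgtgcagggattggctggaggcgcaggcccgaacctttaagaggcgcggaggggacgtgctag
Ly6c1: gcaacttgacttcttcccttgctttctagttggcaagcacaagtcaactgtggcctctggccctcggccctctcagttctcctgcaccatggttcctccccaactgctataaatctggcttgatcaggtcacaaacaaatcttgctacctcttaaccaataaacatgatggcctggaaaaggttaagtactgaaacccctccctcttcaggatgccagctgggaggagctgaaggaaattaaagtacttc
Kdr: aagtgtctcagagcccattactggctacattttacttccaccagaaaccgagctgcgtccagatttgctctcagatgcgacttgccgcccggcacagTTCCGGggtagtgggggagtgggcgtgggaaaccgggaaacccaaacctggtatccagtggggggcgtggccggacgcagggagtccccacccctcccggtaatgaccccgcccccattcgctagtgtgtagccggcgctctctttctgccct
Tek: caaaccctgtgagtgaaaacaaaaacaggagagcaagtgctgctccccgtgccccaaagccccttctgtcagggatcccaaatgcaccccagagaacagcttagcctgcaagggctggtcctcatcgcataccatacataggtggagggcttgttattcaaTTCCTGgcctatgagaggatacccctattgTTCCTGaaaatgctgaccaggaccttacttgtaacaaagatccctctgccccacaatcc
Of the 10 genes, 7 had an entry, with 8 starts in all. CCGGAA or CAGGAA was present before 2 of these 8 starts, against 35% of all 32817 starts in the table. The forkhead motif GTAAACA was present before 1 of the 8, that of Abcb1a, against 3.16% of all. The RefSeq start of Abcb1a follows chr5:8566841-8567090, far upstream of the gene start at 8660077 in the annotation used below, so this match does not lie next to that start. Slc2a1 and Mfsd2a had a GC content of 66.4% and 61.6%, Ly6c1 one of 48.4%, and the median of all starts was 52.4%. A match describes these letters and shows no binding.

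All 10 genes are protein coding. In the GENCODE annotation of GRCm38, Mfsd2a lies at chr4:122946850-122961188 (minus strand), Slc2a1 at chr4:119108711-119137983 (plus), Ly6c1 at chr15:75044018-75048830 (minus), Kdr at chr5:75932827-75978458 (minus) and Flt1 at chr5:147561604-147726011 (minus). Reads could be shared with a near copy for 2 genes. Of the 150-base windows of the longest coding transcript, 5.61% were identical to one in Ly6c2 for Ly6c1, and 4.41% to one in Abcb1b for Abcb1a. The other 8 shared none. Ly6c2 was nearly absent, with 0 to 7 counts in a library, whereas Abcb1b, the second mouse gene for the drug efflux pump P-glycoprotein, lay between 3.47 and 8.10 CPM. Exons of Gm42686 on the opposite strand covered 10.1% of the Abcb1a exon bases, and those of Gm12868 covered 2.99% of Slc2a1. The counting ignored strand, so reads of a gene and of its antisense partner cannot be told apart, and it kept unique alignments alone, so that reads shared by near copies were not counted for either.

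Per length of exon, the transporter Slc2a1 and the antigen Ly6c1 were the most abundant of the 10 transcripts and Kdr the least. Slc2a1, the glucose transporter GLUT1, had a median of 18.01 CPM per kilobase of exon over the 22 libraries (14.8 to 28.9). Ly6c1 followed with 11.2, and Mfsd2a, the carrier of lysophospholipids that limits transcytosis across the barrier, with 6.45. The pump gene Abcb1a (4.77), Flt1 (4.42) and the junction gene Esam (4.31) lay close together in CPM per kilobase. Cdh5, which encodes VE-cadherin, had 3.09, Pecam1, which encodes CD31, had 2.77, Tek had 2.71 and Kdr had 1.93. The range of each gene over the libraries overlapped that of the next in this order. Within a library the order was firmer: Slc2a1 exceeded Ly6c1 in 22 of 22 libraries and Tek exceeded Kdr in 22 of 22, but Flt1 exceeded Esam in 11 of 22 and Pecam1 exceeded Tek in 13 of 22. These levels use all exon bases of a gene, 13504 for Flt1 whose longest coding transcript has 6895, so a gene with long rare exons is placed lower than its main transcript would be.

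**Figure D1:**
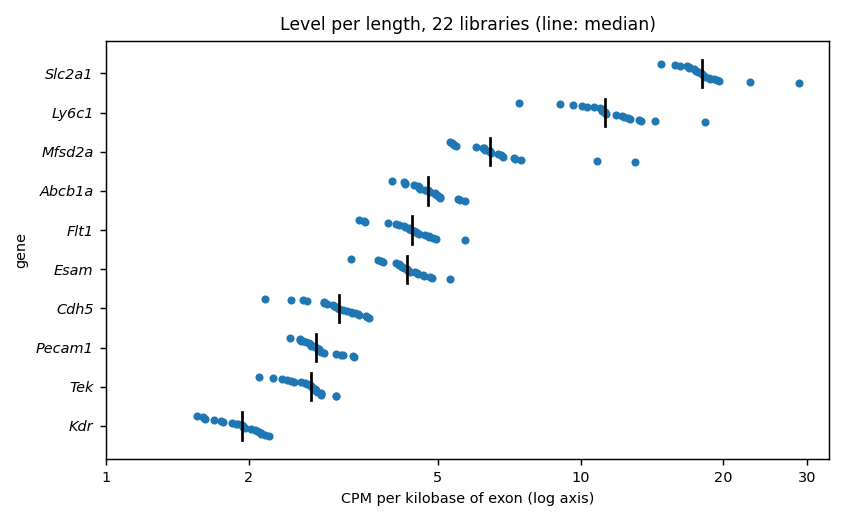
Level of each gene per kilobase of exon (log axis) in the 22 libraries, 1 point per library, with a line at the median. Slc2a1 had the highest median, at 18.01, and Kdr the lowest, at 1.93 CPM per kilobase.

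Enriched housing was set against standard housing within each genotype and as the mean of both. None of the 10 endothelial genes passed the test in either genotype or in the mean. Values in CPM were scaled by TMM, the differences and their 95% intervals come from edgeR's quasi-likelihood fit over the 4 groups, and a gene was called at a Benjamini-Hochberg adjusted p of at most 0.05 with a log2 fold change of at least 0.38 in size, a 1.3-fold change. In WT, 0 of 10 were called against 0% of all genes, and 1 of the 10 and 1598 of all genes had an unadjusted p under 0.05. In KD, 0 of 10 were called against 0% of all genes, with 0 of 10 and 1779 of all genes under 0.05 unadjusted. In the mean of both genotypes, 0 of 10 were called against 0.146% of all genes, with 1 of 10 and 2983 of all genes under 0.05 unadjusted. DESeq2 called 0 of the 10 in each of these, and 23, 2 and 220 of all genes. In bulk tissue, fewer cells of a type and less RNA per cell cannot be told apart.

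The fitted differences were small and their intervals narrow. In the mean of both genotypes the log2 fold change ran from -0.10 (Kdr) to 0.20 (Ly6c1), 8 of 10 were above 0, and the median was 0.06 beside 0.00 for all genes. The count above 0 rested in part on libraries 35A (WT EE) and 36A (KD EE). Without them Tek (-0.01), Flt1 (-0.05) and Mfsd2a (-0.11) also lay below 0, beside Kdr and Abcb1a. The others stayed above 0, from 0.02 (Pecam1) to 0.09 (Ly6c1). In the fit that holds these libraries, the 95% interval lay inside ±0.38 for 9 of the 10, that is, within 1.3-fold either way. The exception was Mfsd2a, with -0.11 to 0.43. Within WT 8 of 10 intervals lay inside these bounds, those of Ly6c1 and Mfsd2a reaching beyond, and within KD 8 of 10 did, those of Slc2a1 and Mfsd2a reaching beyond. The ranges of the groups overlapped for each gene. WT EE and WT SH did not overlap in 0 of 10, against 1.16% of all genes, and KD EE and KD SH in 0 of 10, against 0.557%.

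**Figure D2:**
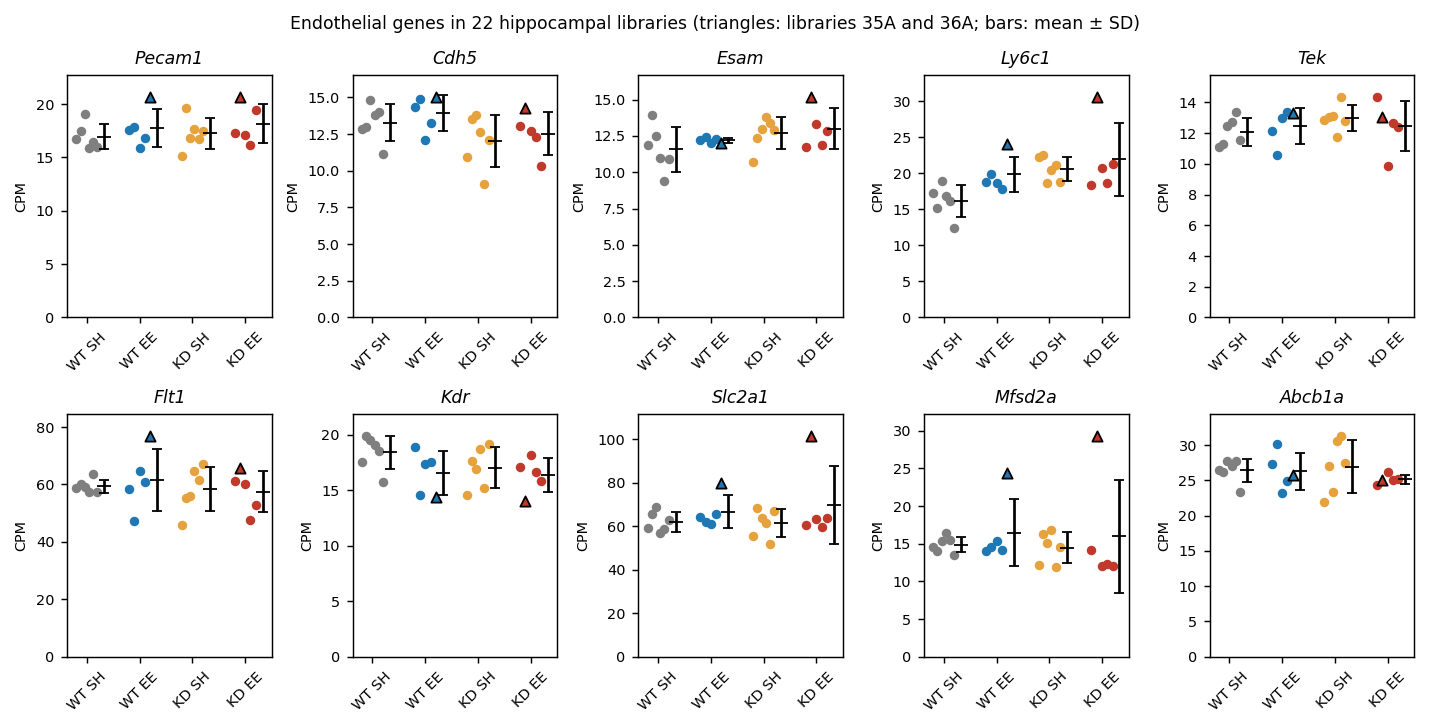
CPM of each gene in the 22 libraries by group, with the mean ± SD of the group at its right and libraries 35A (WT EE) and 36A (KD EE) as triangles. Group ranges overlapped for each gene, and the triangles lay above the other points for Mfsd2a, Slc2a1, Ly6c1 and Pecam1.

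**Figure D3:**
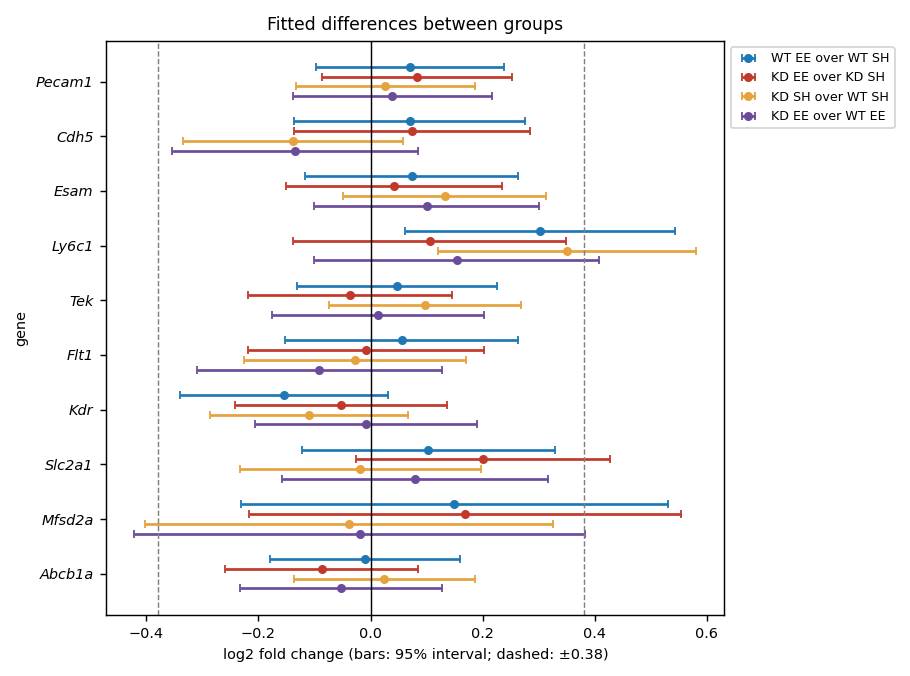
Fitted log2 fold change of each gene for the 2 housing and the 2 genotype comparisons, with 95% intervals and dashed lines at ±0.38. Points for Ly6c1 reached 0.30 in WT EE over WT SH and 0.35 in KD SH over WT SH, and most other intervals lay between the dashed lines.

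Among the growth factor receptors, Kdr had the lowest log2 fold change with housing in the fit of the 22 libraries, and Flt1 and Tek lay near 0. Kdr had 15.8, 18.9 and 19.9 CPM as its lowest, median and highest value in WT SH, and 18.9 (16), 14.5 (17), 17.4 (31B), 17.5 (33A) and 14.4 (35A) in WT EE. In KD SH it had 14.6, 17.3 and 19.2, and in KD EE 18.2 (7), 16.7 (8), 15.9 (9), 17.1 (32A) and 14.04 (36A). The groups overlapped, and the enriched libraries included the 3 lowest values. Its log2 fold change was -0.15 ± 0.09 (SE) in WT and -0.05 ± 0.09 in KD (edgeR adjusted p = 0.676 and 0.880). Without 35A and 36A the value in KD was 0.01 ± 0.09, and that in the mean of both genotypes was -0.05 ± 0.06 against -0.10 ± 0.06. Flt1 was the most variable receptor in WT EE, from 47.1 CPM in library 17 to 76.9 in 35A, while the 6 WT SH libraries lay between 57.3 and 63.6. Its log2 fold change in the mean of both genotypes was 0.02 ± 0.07. Tek lay between 9.88 and 14.4 CPM in all 22 libraries, with a log2 fold change of 0.01 ± 0.06. This order depended on the lettered libraries. Without them, with 16 and 17 left in WT EE, the mean of both genotypes was -0.14 ± 0.08 for Flt1, -0.11 ± 0.08 for Tek and -0.06 ± 0.08 for Kdr.

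None of the adhesion and junction genes passed the test in any comparison. Pecam1, which joins neighbouring endothelial cells, had means of 16.9 ± 1.18 CPM (SD, n = 6) in WT SH, 17.8 ± 1.78 (n = 5) in WT EE, 17.3 ± 1.48 (n = 6) in KD SH and 18.2 ± 1.86 (n = 5) in KD EE. The highest value of both enriched groups came from libraries 35A and 36A, and the log2 fold change in the mean of both genotypes was 0.08 ± 0.06, or 0.02 ± 0.06 without these 2. Cdh5 had means of 13.3 ± 1.26 CPM (n = 6) in WT SH, 13.9 ± 1.24 (n = 5) in WT EE, 12.0 ± 1.78 (n = 6) in KD SH and 12.5 ± 1.45 (n = 5) in KD EE. It was the member with the lowest log2 fold change in KD over WT, -0.14 ± 0.07 in the mean of both housings (edgeR adjusted p = 0.803). Esam had means between 11.6 (WT SH) and 12.99 CPM (KD EE), and in WT EE its 5 values lay between 12.0 and 12.4.

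Ly6c1, a surface antigen of brain endothelial cells in the mouse, was lowest in WT SH. It had 12.4, 16.5 and 19.0 CPM as the lowest, median and highest value in WT SH. In WT EE it had 18.9 (16), 19.97 (17), 18.6 (31B), 17.9 (33A) and 24.1 (35A). In KD SH it had 18.6, 20.8 and 22.5, and in KD EE 20.7 (7), 18.6 (8), 21.4 (9), 18.4 (32A) and 30.7 (36A). WT SH overlapped WT EE and KD SH only through library 12, its highest, and 5 of its 6 libraries lay below every library of both. The log2 fold change was 0.30 ± 0.12 (SE) for WT EE over WT SH, with an unadjusted p = 0.0163 and an edgeR adjusted p = 0.448. For KD SH over WT SH it was 0.35 ± 0.11, with an unadjusted p = 0.00446 and an edgeR adjusted p = 0.811. These comparisons share the WT SH libraries. For KD EE over KD SH it was 0.11 ± 0.12 and for the same genotype comparison in enriched cages 0.15 ± 0.12. The difference between the housing effects of KD and WT was -0.20 ± 0.17 (edgeR adjusted p = 0.99996). None of these passed the test.

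The values of Ly6c1 in the enriched groups rested in part on 2 libraries that stood apart for Mfsd2a and Slc2a1. Without 35A and 36A, an alternative chosen after the data were seen, its log2 fold change was 0.22 ± 0.09 (SE) for WT EE over WT SH and -0.05 ± 0.09 for KD EE over KD SH, and the interaction was -0.28 ± 0.13 with an unadjusted p = 0.0471 and an edgeR adjusted p = 0.99979. For KD EE over WT EE it was 0.15 ± 0.12 over the 22 libraries, -0.01 ± 0.11 without 36A alone and 0.24 without 35A alone. Without both libraries it was 0.07 ± 0.10, so that this difference moved with each of them, in opposite directions. KD SH over WT SH holds neither library. With the choroid plexus score as a covariate the log2 fold change was 0.29 ± 0.12 for WT EE over WT SH and 0.35 ± 0.11 for KD SH over WT SH. The antigen gene Ly6a of the same family, listed among the near relatives, had group means of 10.1 ± 1.85 CPM (SD, n = 6) in WT SH, 13.8 ± 1.78 (n = 5) in WT EE, 13.5 ± 1.80 (n = 6) in KD SH and 13.7 ± 3.18 (n = 5) in KD EE. It too was lowest in WT SH, with log2 fold changes of 0.45 ± 0.14 (SE) for WT EE over WT SH and 0.42 ± 0.13 for KD SH over WT SH (edgeR adjusted p = 0.399 and 0.811). Ly6e, a more widely expressed relative, had -0.04 ± 0.06 and 0.02 ± 0.06.

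Markers of blood, the haemoglobin genes and Alas2, which makes haem in red cell precursors, were also lower in WT SH than in the other groups by their medians. Over the 5 tested the median log2 fold change was 0.53 for WT EE over WT SH, with 5 of 5 above 0 and 4 under 0.05 unadjusted, and 0.38 for KD SH over WT SH, with 5 of 5 above 0 and 1 under 0.05. It was -0.10 for KD EE over KD SH, and -0.61 for the interaction, with 5 of 5 below 0. None was called in any of these. The 6 listed blood genes summed to 37.3 to 49.8 CPM in WT SH, 29.5 to 128 in WT EE, 47.4 to 81.6 in KD SH and 50.4 to 61.0 in KD EE, and the lowest of the 22 sums was that of 35A, the library with the most Ly6c1 in WT EE. In KD SH over WT SH the thalamic and striatal markers lay below 0 in 6 of 6 each, with medians of -0.48 and -0.40. The part of blood or of neighbouring tissue in the levels of Ly6c1 and Ly6a was not tested.

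The barrier transporters Slc2a1 and Mfsd2a had their highest values in the same enriched libraries, 1 of each genotype. Mfsd2a had 13.5, 14.9 and 16.4 CPM as the lowest, median and highest value in WT SH, and 11.9, 14.8 and 16.8 in KD SH. In WT EE it had 14.009 (16), 14.5 (17), 15.4 (31B), 14.1 (33A) and 24.4 (35A), and in KD EE 12.1 (7), 12.3 (8), 12.0 (9), 14.1 (32A) and 29.3 (36A). Apart from 35A and 36A, the enriched libraries lay within the range of the standard-housed ones. Its log2 fold change in the mean of both genotypes was 0.16 ± 0.13 (SE) over the 22 libraries and -0.11 ± 0.07 without these 2, so that its direction rested on them. Without 35A and 36A it was -0.04 ± 0.09 in WT and -0.18 ± 0.10 in KD (edgeR adjusted p = 0.959 and 0.730).

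Slc2a1 repeated this pattern. It had 56.9, 61.2 and 68.7 CPM as the lowest, median and highest value in WT SH and 51.9, 62.6 and 68.1 in KD SH. In WT EE it had 64.2 (16), 61.9 (17), 61.2 (31B), 65.6 (33A) and 79.8 (35A), and in KD EE 63.3 (7), 59.5 (8), 63.7 (9), 60.7 (32A) and 101.4 (36A). The groups overlapped, and the other 8 enriched libraries lay within the range of the standard-housed ones. The log2 fold change in the mean of both genotypes was 0.15 ± 0.08 (SE) over the 22 libraries and 0.03 ± 0.05 without 35A and 36A. Abcb1a, the P-glycoprotein gene of the barrier, did not share the pattern: it had 25.7 CPM in 35A and 25.1 in 36A against 21.9 to 31.3 in the other 20. Its log2 fold change in the mean of both genotypes was -0.05 ± 0.06. Abcb1b was lowest in these 2 libraries, at 4.17 and 3.47 CPM against 4.94 to 8.10 in the others.

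Set against the median of the other 20 libraries, 35A held 1.70 times and 36A 2.05 times as much Mfsd2a, 1.28 and 1.62 times as much Slc2a1, 1.28 and 1.64 times as much Ly6c1, and 1.22 and 1.22 times as much Pecam1. For these 4 genes both libraries lay above all 20 others, which held for 3.52% of all genes tested, 0 of 32 other endothelial genes, 0 of 12 pericyte genes and 2 of 21 angiogenic receptors (Adgra2 and Notch4). Kdr went the other way, at 0.82 and 0.80 times, the lowest 2 values of the 22. The list of other endothelial genes did not stand out in these libraries, where it summed to 898 and 969 CPM within a range of 835 to 993. The 2 libraries differed in choroid plexus markers, with 65.8 CPM in 35A, among the lower sums, and 5908 in 36A, the highest. They also differed in depth, 56752074 and 30079793 counts. The study itself left 35A out of its tests, where libraries that correlated weakly with their group were dropped, and kept 36A.

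**Figure D4:**
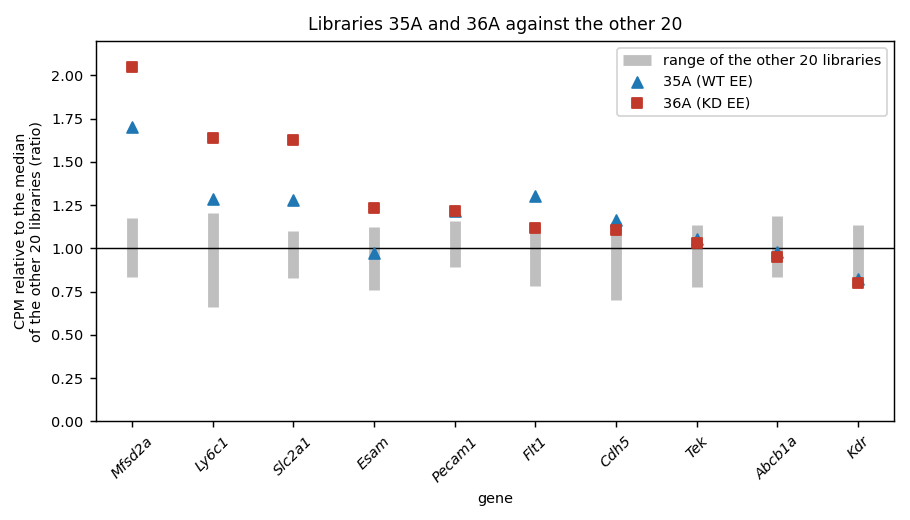
CPM of each gene in libraries 35A and 36A as a ratio to the median of the other 20, whose range is the grey bar. Mfsd2a stood highest, at 1.70 and 2.05, and Kdr lay below the other 20 at 0.82 and 0.80.

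Genotype was compared within each housing. None of the 10 genes passed the test, and 5 of 10 lay above 0 in the mean of both housings, with a median log2 fold change of 0.01. In KD SH over WT SH, 0 of 10 were called against 0% of all genes, with 1 of 10 (Ly6c1) and 1065 of all genes under 0.05 unadjusted. In KD EE over WT EE the counts were 0 of 10 against 0%, with 0 of 10 and 482 of all genes under 0.05 unadjusted. In the mean of both housings they were 0 of 10 against 0%, with 1 of 10 (Ly6c1, 0.25 ± 0.08) and 1120 of all genes. For the interaction of genotype and housing they were 0 of 10 against 0%, with 0 of 10 and 377 of all genes. DESeq2 called 0 of the 10 in these 4 comparisons, and 2, 0, 0 and 0 of all genes. KD SH and WT SH did not overlap in 0 of 10, against 0.276% of all genes, and KD EE and WT EE in 0 of 10, against 0.346%. In the mean of both housings 9 of 10 intervals lay inside ±0.38, and that of Ly6c1 reached from 0.08 to 0.42. In KD SH over WT SH and in KD EE over WT EE 8 of 10 did, those of Ly6c1 and Mfsd2a reaching beyond. In the interaction 7 of 10 did, those of Ly6c1, Slc2a1 and Mfsd2a reaching beyond. The median standard error of the 10 genes was 0.14 in the interaction and 0.07 in the mean of both housings, so the interaction was bounded less tightly.

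In KD over WT, mean of both housings, the other vascular lists had 0 called genes each. Their medians lay near that of all genes, which was 0.00: 0.01 for the 32 other endothelial genes, -0.01 for the ligands, -0.02 for the targets and -0.04 for the pericyte genes. The receptors were the list farthest from it among those, with 16 of 21 below 0 and a median of -0.10, and 1 above and 2 below 0 had an unadjusted p under 0.05. In the interaction, 0 of the list genes were called, and the lists went both ways: 23 of the 32 other endothelial genes and 8 of the 12 pericyte genes lay below 0, with medians of -0.08 and -0.09, while 13 of the 21 ligands, 11 of the 21 receptors and 15 of the 23 targets lay above 0, with medians of 0.11, 0.05 and 0.07. Of the 32, 4 had an unadjusted p under 0.05 in the interaction, all below 0, beside 377 of 18482 genes tested. Of the ligands, receptors, targets and pericyte genes, 1 receptor below 0 and 1 target above 0 did so. For enriched over standard housing in WT, 7 of the 32 lay above 0 with an unadjusted p under 0.05, and 0 below. In KD the count was 1 above and 0 below, beside 1598 (WT) and 1779 (KD) of all genes.

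The 17 libraries that the study fitted gave many more called genes overall and none of these. Over 18701 genes, edgeR called 0 of the 10 in WT EE over WT SH against 3.55% of all genes, 0 in KD EE over KD SH against 1.74%, and 0 in the mean of both genotypes against 3.85%. It called 0 of the 10 in KD SH over WT SH against 0%, in KD EE over WT EE against 0.00535%, in the mean of both housings against 0% and in the interaction against 0%. Unadjusted p-values fell under 0.05 for 0, 1 (Slc2a1) and 1 (Ly6c1) of the 10 in the 3 housing comparisons. Ly6c1 alone did so in KD SH over WT SH (0.37 ± 0.12, edgeR adjusted p = 0.881) and in the mean of both housings (0.30 ± 0.09, edgeR adjusted p = 0.787). In KD EE over WT EE and in the interaction 0 of the 10 did. Those 17 include 36A and lack 35A, and WT EE has 3 libraries there.

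The other vascular genes gave the setting. Of 32 further brain endothelial genes, 0 were called in the mean of both genotypes, 5 had an unadjusted p under 0.05 above 0 and 1 below (Cldn5, the main claudin of the barrier, -0.18 ± 0.08), and their median was 0.03. The lowest p-values were those of the efflux pump Abcc4 (0.30 ± 0.07, edgeR adjusted p = 0.0514) and the thyroid hormone and organic anion carrier Slco1c1 (0.33 ± 0.12, adjusted p = 0.147). Of 12 pericyte genes 0 were called, with a median of 0.01, and Atp13a5 (-0.17 ± 0.07) and the potassium channel subunit Abcc9 (0.16 ± 0.09) had the lowest p-values. Of the 4 smooth muscle genes tested 0 were called, with Myh11 at 0.12 ± 0.11 and Acta2 at 0.09 ± 0.12.

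Among the ligands, receptors and targets of vessel growth 0 genes were called by both criteria. Of 21 ligands tested 1 had an unadjusted p under 0.05 above 0 and 2 below, and the median was -0.03. Ndp, which encodes norrin, the Wnt-like ligand of Fzd4, passed the adjusted p alone: it was at 7.82 ± 0.77 CPM (SD, n = 6) in WT SH, 5.55 ± 0.53 (n = 5) in WT EE, 8.18 ± 1.06 (n = 6) in KD SH and 6.88 ± 0.84 (n = 5) in KD EE. WT EE lay wholly below WT SH (4.70 to 6.03 against 6.39 to 8.45), groups that did not overlap in 1.16% of all genes. Ndp was named for its low p-value in the mean housing comparison, so this gap is no separate result. The log2 fold change of Ndp was -0.49 ± 0.11 for WT EE over WT SH, with an edgeR adjusted p = 0.203. In the mean of both genotypes the log2 fold change was -0.37 ± 0.08 (edgeR adjusted p = 0.0438), short of 0.38 in size. Angpt2, the angiopoietin that loosens vessels, was at 0.70 ± 0.23 (adjusted p = 0.128). Of 21 receptors 4 lay above 0 and 3 below with an unadjusted p under 0.05, with a median of 0.06. Fzd4 was the first of them, at 0.64 ± 0.15 (adjusted p = 0.0508), with 11.4 to 16.8 CPM in WT SH, 13.96 to 32.2 in WT EE, 10.8 to 19.0 in KD SH and 11.7 to 30.8 in KD EE, and Ackr3, a scavenger of Cxcl12, was at 0.27 ± 0.09. Of 23 targets 9 lay above and 1 below with an unadjusted p under 0.05, with a median of 0.16, led by Thbs1 (0.79 ± 0.26) and the matrix protease Mmp2 (0.44 ± 0.15).

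**Figure D5:**
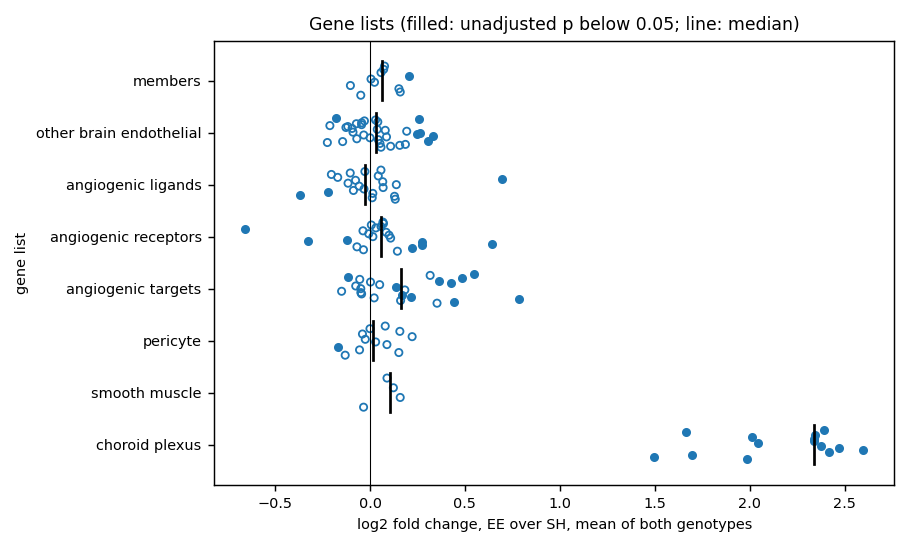
Log2 fold change of each gene for enriched over standard housing, mean of both genotypes, by list, with the list median as a line and filled points for an unadjusted p below 0.05. The 10 endothelial genes had a median of 0.06, and the choroid plexus genes one of 2.34.

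Markers of other tissues also differed between the housings by the medians of their lists, with 0 called among the lists given here. For the choroid plexus, 14 of 14 had an unadjusted p under 0.05 in the mean of both genotypes, with a median log2 fold change of 2.34, and 0 were called because the spread within groups was wide. The markers of the meninges, the membranes over the brain, lay above 0 in 10 of 10, with 7 of 10 under 0.05 unadjusted and a median of 0.50, and 0 were called. Ependymal markers, which line the ventricles, had a median of -0.31, with 1 of 5 above and 3 of 5 below 0 under 0.05 unadjusted, and thalamic markers one of -0.39, with 6 of 6 below 0. The part of these tissues in the values of Fzd4, Thbs1 and the other list genes was not tested. For the 10 endothelial genes the fit with the choroid plexus score as a covariate also called 0, and the log2 fold change of Ly6c1 in the mean of both genotypes was 0.18 ± 0.09 there against 0.20 ± 0.08. Its unadjusted edgeR p was 0.0652 with the covariate and 0.0217 without. Other members moved too: Cdh5 was at -0.01 ± 0.08 against 0.07 ± 0.07 and Slc2a1 at 0.10 ± 0.09 against 0.15 ± 0.08. Esam was at 0.02 ± 0.07 against 0.06 ± 0.07, and Flt1 rose to 0.09 ± 0.08 from 0.02 ± 0.07.

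The 10 genes varied together only in part. After group means were removed, 36 of the 45 pairs had a positive Pearson r over the 22 libraries, with a median of 0.24. Libraries were permuted within groups 100000 times, and p-values were adjusted over the 45 pairs. Pecam1 and Slc2a1 were the 1 pair that passed on both measures, with r = 0.76 (permutation p = 6e-05, adjusted 0.0027) and Spearman rho = 0.77 (permutation p = 6e-05, adjusted 0.0027). Without 35A and 36A, the 2 libraries farthest from the median of Pecam1, r was 0.68. Slc2a1 and Mfsd2a had r = 0.86 (permutation p = 0.00481, adjusted 0.0599) and rho = 0.66 (permutation p = 0.00832, adjusted 0.125), and r was 0.57 without these libraries. Cdh5 and Mfsd2a passed by rank alone (rho = 0.70, permutation p = 0.00026, adjusted 0.00585, and r = 0.58, permutation p = 0.00764, adjusted 0.0688, or r = 0.54 without libraries 5 and 9). Pecam1 and Ly6c1 passed by r alone (r = 0.65, permutation p = 0.00216, adjusted 0.0486, and rho = 0.50, permutation p = 0.0299, adjusted 0.168), and r was 0.45 without 35A and 36A.

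The receptors Flt1 and Kdr, which share their ligand, had r = 0.19 (permutation p = 0.475, adjusted 0.669) and rho = 0.22 (permutation p = 0.374, adjusted 0.647). Their r was 0.27 without libraries 17 and 35A, the farthest from the median of Flt1, and 0.58 without 35A and 36A, in which Flt1 lay above and Kdr below the median of the others. Each gene was also set against the mean of the 10 standardised genes, of which it is itself a part. Its r ran from 0.14 for Kdr and 0.18 for Tek to 0.82 for Mfsd2a and 0.83 for Pecam1. Without 35A and 36A, r was 0.67 for Kdr, 0.06 for Tek, 0.67 for Mfsd2a and 0.75 for Pecam1, so the low place of Kdr rested on these libraries.

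The genes outside the set that followed this mean most closely over the 22 libraries were Helz2, Tns3, Creb3l2, Mmrn2, Il6st, Kbtbd4, Abca9, Plin4, Notch4 and Ptpn11, with r from 0.76 to 0.82. Mmrn2 and Notch4 are endothelial genes in their own right, a matrix glycoprotein and a receptor of the Notch family, Il6st is the shared signal chain of the interleukin-6 receptors, and Plin4 coats lipid droplets. These 10 were picked by r over the same libraries, 35A and 36A included, so their levels there follow in part from the choice. In 8 of the 10, Il6st and Kbtbd4 excepted, 35A and 36A lay above all other libraries, which held for 3.52% of all genes tested. Plin4 did so by most, with 10.7 and 18.6 CPM against 1.92 to 4.22. Without these libraries r ranged from 0.52 for Plin4 to 0.73 for Creb3l2.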

How the data were processed

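Per the labels and the study's methods, polyA libraries (TruSeq v2, 150-base paired ends) were trimmed, aligned by the authors to GRCm38 with STAR 2.5 and counted per gene with HTSeq, without regard to strand and from unique alignments. The deposited values used here are raw read counts per gene symbol in 1 file per library. The submitters' notes also name DESeq, and the series-wide table, which holds normalized values, was not used. HTSeq's 5 summary lines, with 14.05% to 18.6% of the records, were left out. In library 34B the 10 genes held 2 counts in all.

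Library sizes were scaled by TMM (edgeR 4.0.16, R 4.3.3) after filterByExpr by group. CPM used these scaled sizes. glmQLFit and glmQLFTest were run on the 22 libraries with 1 mean per group, p-values were adjusted by Benjamini-Hochberg over 18482 genes, and the calls used the study's own limits on adjusted p (0.05) and on the size of the log2 fold change (0.38). Counts of 2247 to 16981 on the 10 genes per library set the precision, and 3 counts equal 0.0529 to 0.337 CPM. The mean housing comparison was checked on simulated counts with the same spread setting for every gene. The simulation held no differences in tissue content and no outlying libraries, so it does not cover these. Alternatives were the 17 libraries of the study, all 24, no lettered libraries, each library left out, only the groups compared, DESeq2 1.42.0, its size factors, 2 filters, no fold threshold and a choroid plexus covariate.

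The 10 genes and the gene lists were chosen with earlier results of these data known. Beside the 10, a list gene was named if called, or else if it had 1 of the 2 lowest unadjusted p-values of its list in the mean housing comparison. Adgra2, Cldn5, Ly6a and Ly6e are further list genes named after their values were seen. The 10 genes most like the set had the highest Pearson r of group-centred log2 CPM (prior count 2) with its mean. Positions and exon lengths come from GENCODE M21 (GRCm38), sequences from RefSeq (GRCm38.p6). Python 3.11.15 and matplotlib 3.10.9 were used for pairs and figures.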

Additional observations from a re-analysis of the deposited data

Results flagged for a closer look

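Within each group the highest and the lowest library was set against its nearest neighbour by Dixon's criterion, over 40 combinations of gene and group. It marked 6, where chance alone gives about 2. Mfsd2a was high in library 35A (WT EE) at 24.4 CPM, where the next library had 15.4, and in library 36A (KD EE) at 29.3 CPM, where the next had 14.1. Slc2a1 was high in the same libraries, at 79.8 CPM in 35A (next 65.6) and 101.4 CPM in 36A (next 63.7). Ly6c1 was high in 36A at 30.7 CPM (next 21.4). Abcb1a was low in library 15 (WT SH) at 23.4 CPM, where the next library had 26.1.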

How the results depend on the processing

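The number of the 10 endothelial genes called was 0 in every comparison of each alternative run, 235 counts without those of the 22-library fit itself. Each alternative gave all 7 comparisons, except the runs on only the groups compared, which gave neither the means nor the interaction. With each of the 22 libraries left out in turn the number stayed at 0 to 0. The lowest adjusted p of any of the 10 genes in any setting was 0.166. Of 2280 refitted log2 fold changes, 156 took the other sign, none of them past the test, and 35 of these were of Mfsd2a. The following 2 alternatives were chosen after the data were seen. Without 35A and 36A, 15 of 70 log2 fold changes took the other sign. Without libraries 12 and 14 Ly6c1 was at 0.41 for KD SH over WT SH.

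Single libraries moved values of Mfsd2a, Slc2a1, Pecam1, Ly6c1 and Kdr. Without 36A, Mfsd2a for KD EE over KD SH was at -0.18 against 0.17, and for KD EE over WT EE at -0.37 (unadjusted p = 0.0145) against -0.02. Without 35A, Slc2a1 for WT EE over WT SH was at 0.02 against 0.10 and Pecam1 at 0.00 against 0.07. Ly6c1 for KD EE over WT EE was at -0.01 without 36A and at 0.24 without 35A, against 0.15. Without 36A, Kdr for KD EE over KD SH was at 0.01 against -0.05. The log2 fold change of Ly6c1 for KD SH over WT SH ran from 0.29 (without library 15) to 0.40 (without library 12) as each library was left out. The genes called in the mean housing comparison numbered 27 with 22 libraries and 720 with the study's 17, 90 with all 24, 80 without lettered libraries, 220 with DESeq2, 44 with its size factors, 209 with no filter, 45 with at least 10 counts in every library, 49 with no fold threshold, 12 with the choroid plexus covariate, 3 without 35A and 36A and 4 without 12 and 14, and ran from 2 (without any 1 of 8 libraries, among them 36A) to 287 (without 31B) as single libraries were left out. No paired analysis was possible because each library carries its own code and the groups share no replicate number. With 5 or 6 libraries a group, the median standard error of a log2 fold change of the 10 genes was 0.10 in WT EE over WT SH, and after adjustment over all genes even the 0.35 of Ly6c1 in KD SH over WT SH was not detectable.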

Other observations

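Plin4 stood out with Mfsd2a and Slc2a1 in libraries 35A and 36A, and is known to be induced by glucocorticoid hormones. A list of 22 genes known to be so induced was drawn up after these values were seen, and is given as a description only. For 15 of the 22 genes both libraries lay above all 20 others, against 3.52% of all genes tested. The 15 include Plin4, the gene that prompted the list, so the count is not independent of these libraries. Tsc22d3, which encodes the leucine zipper protein GILZ, had 84.5 CPM in 35A and 94.3 in 36A against 40.1 to 52.1 in the others. Sgk1, a kinase that regulates ion transport, had 127 and 147 CPM against 43.3 to 96.1. Fkbp5, a chaperone of the steroid receptors, had 71.0 and 74.1 CPM against 37.2 to 62.5, and Errfi1, a feedback inhibitor of growth factor receptors, had 53.5 and 52.9 CPM against 27.4 to 39.7. Members of the list that did not follow were Pdk4, Ddit4, Dusp1, Mt1, Mt2, Cyp4f15 and Angptl4. The part of these genes in the levels of Mfsd2a, Slc2a1 and Ly6c1 was not tested, and time of day, handling and extraction are not given for single libraries.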
